A study of Bos taurus with 8 samples.

Results

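The genes described here are ID1, BAMBI and LRRC32, which act at 3 different points of TGF-β and BMP signaling, and their levels were read in bovine endothelial cells given leukemia inhibitory factor (LIF) or vehicle. They are 3 of the 25889 rows of the count table and 3 of the 110 rows that the deposited files pair with a gene name. All 3 were chosen by measured values: each stands in the table of genes that the authors called after LIF in choroidal cells, where it was higher with LIF. Their response in choroidal cells is therefore given as a description with no test. Their response in aortic cells comes from libraries that this call in choroidal cells did not compare, and it was tested. The 3 genes were picked with earlier results of these data known, so this test may not be fully independent of the choice.

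TGF-β and BMP ligands bind receptor kinases at the cell surface, which phosphorylate SMAD proteins that then enter the nucleus and change transcription. In endothelial cells this signaling is known for its part in vessel growth, quiescence and the make-up of the matrix. LRRC32, also called GARP, is a membrane protein that holds latent TGF-β at the cell surface. BAMBI is a pseudoreceptor that resembles a type I receptor but lacks the kinase domain and dampens signaling. ID1 is a helix-loop-helix protein that binds E proteins and keeps them off DNA, and it is a well-known direct target of BMP signaling through SMADs. LIF itself acts through another route, in which its receptor and the shared subunit IL6ST activate JAK kinases and STAT3.

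Endothelial cells of the bovine choroid (BCE cells) and of the bovine aorta (BAE cells), both bought from suppliers as cultured cells, were kept for 3 h in assay medium and then given LIF at 10 ng/ml or vehicle (BSA in PBS) for 6 h. The assay medium held 10% calf serum for BCE cells and 1% for BAE cells. Only BCE cells had been maintained with bFGF and VEGF on fibronectin, and the suppliers of the cells differed. Cell type, medium and source of the cells therefore cannot be told apart. The 4 groups of 2 libraries each are BCE vehicle, BCE LIF, BAE vehicle and BAE LIF. The methods call the 2 libraries of a group biological replicates, and the BAE cells came from 1 commercial lot. Levels are given in CPM, read counts scaled to a common library size with TMM factors, and are compared for 1 gene between libraries and never between genes, since they are not divided by gene length. In bulk RNA such as this, fewer cells of a type and less RNA per cell cannot be told apart. None of the 37 marker genes listed for endothelial cells and for other cell types had an identifier paired with its name, so the labelled cell types were not checked against markers.

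Library totals ran from 18600598 to 35269335 counts, and from 15236 to 15768 genes were detected in a library. At these depths 3 counts, taken as the floor of detection, are worth 0.0851 to 0.161 CPM, and ID1, BAMBI and LRRC32 lay above that floor in all 8 libraries. STAT3 and SOCS3, which are standard readouts of LIF signaling, served as a check of the treatment labels in BAE cells. In BCE cells the authors had called both genes, as they had every gene with a name, so their BCE values check nothing and are given for completeness. SOCS3, the feedback inhibitor of JAK signaling, went from 6.27 ± 0.314 to 67.1 ± 3.65 CPM in BAE cells and from 10.1 ± 0.494 to 23.4 ± 0.663 CPM in BCE cells (mean ± SD, n = 2). STAT3 went from 170 ± 1.22 to 330 ± 3.25 CPM in BAE cells and from 211 ± 7.18 to 327 ± 3.17 CPM in BCE cells (SD, n = 2).

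ID1 was higher with LIF in both cell types, BAMBI was higher with LIF in BCE cells and overlapped between the BAE groups, and LRRC32 was higher with LIF in both cell types but at a far lower level in BAE cells. RefSeq's annotation of a newer bovine assembly (ARS-UCD2.0), used for names and neighbours only, lists all 3 as protein coding and shows no other gene overlapping any of them. There ID1 lies between HM13 and COX4I2, BAMBI lies between LYZL1 and WAC, and LRRC32 lies next to EMSY.

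**Figure D1:**
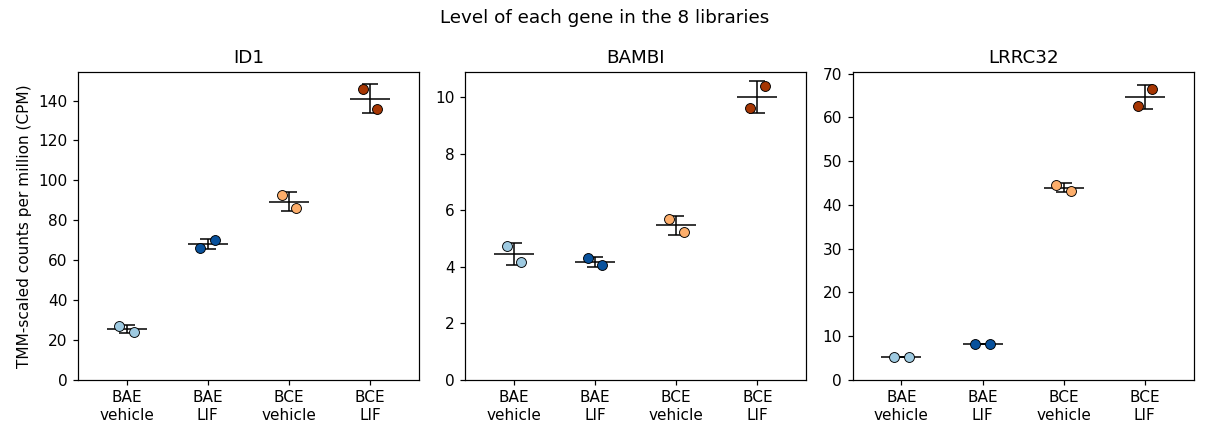
Level of ID1, BAMBI and LRRC32 in each of the 8 libraries, in TMM-scaled CPM, by group. Points are libraries, the long horizontal line is the mean of a group and the bars are its SD (n = 2). Each panel has its own axis from 0. ID1 and LRRC32 rise in the order BAE vehicle, BAE LIF, BCE vehicle, BCE LIF with no overlap, and the BAMBI points of the BAE groups overlap near 4 CPM.

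ID1, the inhibitor of E proteins (ENSBTAG00000016169), was measured at 26.7 and 24.1 CPM in the BAE vehicle libraries, from 916 and 526 counts. In the BAE LIF libraries it was measured at 66.1 and 69.8 CPM, from 1384 and 1798 counts. Both LIF libraries stood above both vehicle libraries, and each LIF library held 2.48 to 2.90 times the level of each vehicle library. The fit gave a log2 fold change of 1.45 (SE 0.0709, 95% interval 1.30 to 1.60), a 2.73-fold rise, with an adjusted p of 2.23e-10 by edgeR's quasi-likelihood test. It was the 89th largest rise among 13034 genes tested. Of the 3 genes described here 2, ID1 and LRRC32, were called higher in BAE cells and none lower. Over all genes tested in these cells 22.2% were called and 13.6% were called higher. Groups that do not overlap and are higher with LIF were found for 30.8% of the genes tested in BAE cells.

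In BCE cells ID1 started from a higher level. It was measured at 92.7 and 85.9 CPM with vehicle (2757 and 2071 counts) and at 146 and 136 CPM with LIF (3770 and 2611 counts). The groups did not overlap, and each LIF library held 1.46 to 1.70 times the level of each vehicle library. The described log2 fold change was 0.66 (SE 0.0612, 95% interval 0.52 to 0.80), which is 1.58-fold. This contrast chose the gene, so nothing is read from the size against the 0.922% of 13014 genes called in BCE cells, or the 0.692% called as higher, or the 20.3% whose groups do not overlap and are higher with LIF.

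The order of the ID1 levels was BCE LIF, BCE vehicle, BAE LIF and BAE vehicle, with means of 141 ± 7.29, 89.3 ± 4.78, 68.0 ± 2.63 and 25.4 ± 1.81 CPM (SD, n = 2). Each group's range stood apart from the next. The smallest step was between vehicle-treated BCE cells and LIF-treated BAE cells, where the means differed 1.31-fold, so ID1 in BAE cells given LIF lay below its vehicle level in BCE cells. The ratio of BCE to BAE means was 3.52 with vehicle and 2.07 with LIF.

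BAMBI, the pseudoreceptor (ENSBTAG00000003045), was read from between 90 and 248 counts in a library. In BCE cells it was measured at 5.68 and 5.23 CPM with vehicle (169 and 126 counts) and at 9.61 and 10.4 CPM with LIF (248 and 200 counts). The LIF libraries stood above the vehicle libraries, at 1.69 to 1.99 times their level. The fitted change was 0.87 on the log2 scale (SE 0.135, 95% interval 0.57 to 1.17), which is 1.83-fold and the largest of the 3 genes in BCE cells, again as a description of the contrast that chose it.

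In BAE cells BAMBI was measured at 4.71 and 4.17 CPM with vehicle (162 and 91 counts) and at 4.30 and 4.04 CPM with LIF (90 and 104 counts). These groups overlapped, and only 1 of the 4 ratios of a LIF library to a vehicle library was above 1. Its log2 fold change was -0.07 (SE 0.167, 95% interval -0.43 to 0.28), with an adjusted p of 0.812 by edgeR. In folds that interval runs from 0.745 to 1.22, so changes within it in either direction cannot be told from none. The exact Poisson intervals of the single libraries, which cover counting error only, ran from 4.02 to 5.50 CPM for the first vehicle library and from 3.46 to 5.28 CPM for the first LIF library.

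The order of the BAMBI levels was BCE LIF at 10.0 ± 0.558 CPM, BCE vehicle at 5.45 ± 0.321 CPM, BAE vehicle at 4.44 ± 0.386 CPM and BAE LIF at 4.17 ± 0.184 CPM (SD, n = 2). The last pair did not differ beyond its spread. The ratio of BCE to BAE means was 1.23 with vehicle and 2.40 with LIF.

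LRRC32, the docking receptor of latent TGF-β (ENSBTAG00000001301), was measured at 5.24 and 5.27 CPM in the BAE vehicle libraries (180 and 115 counts) and at 8.07 and 8.12 CPM in the BAE LIF libraries (169 and 209 counts). The LIF libraries held 1.53 to 1.55 times the level of the vehicle libraries. The fitted change was 0.66 on the log2 scale (SE 0.135, 95% interval 0.37 to 0.94), a 1.58-fold rise, with an adjusted p of 0.00197 by edgeR. The libraries of each pair lay closer to each other than counting error alone would place them, since the Poisson interval of the first LIF library ran from 6.90 to 9.38 CPM, so the SD understates the error and the SE of the fit is wider.

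In BCE cells LRRC32 was measured at 44.6 and 43.2 CPM with vehicle (1328 and 1041 counts) and at 62.7 and 66.5 CPM with LIF (1619 and 1280 counts). The groups did not overlap, and the LIF libraries held 1.41 to 1.54 times the level of the vehicle libraries. The fitted change was 0.56 on the log2 scale (SE 0.0665, 95% interval 0.41 to 0.70), which is 1.47-fold. The order of the levels was that of ID1, with means of 64.6 ± 2.70, 43.9 ± 1.03, 8.09 ± 0.0308 and 5.25 ± 0.0205 CPM (SD, n = 2), and each range stood apart from the next. Here the largest step fell between the cell types, 5.43-fold between BCE vehicle and BAE LIF, and the steps from vehicle to LIF were 1.47-fold and 1.54-fold.

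The next comparison asks how the cell types differed after 6 h of vehicle, in cultures that received no LIF. It shares the BCE vehicle libraries with the contrast that chose the genes, so its tests are not independent of that choice. Choosing genes for a rise with LIF favours low BCE vehicle readings, which can make these differences smaller. The comparison is also between cells in unlike serum and from different suppliers. Cell type, medium and source of the cells cannot be told apart, and the p-values measure spread between cultures, not between animals. ID1 was 3.50-fold higher in BCE than in BAE cells, a log2 difference of 1.81 (SE 0.0812, 95% interval 1.63 to 1.99, adjusted p = 3.19e-09 by edgeR). LRRC32 was 8.34-fold higher, a log2 difference of 3.06 (SE 0.103, 95% interval 2.83 to 3.29, adjusted p = 2.27e-10 by edgeR), the 300th largest of 13426. BAMBI differed by 0.29 on the log2 scale (SE 0.167, 95% interval -0.08 to 0.65), and its adjusted p of 0.168 by edgeR did not pass the threshold, although both BCE libraries stood above both BAE libraries. So 2 of the 3 genes were called higher in BCE cells and none lower, while 53.8% of all genes tested were called and 26.2% were called higher. Groups that did not overlap, with BCE cells higher, were found for all 3 genes and for 38.3% of the genes tested.

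The difference between the LIF effects of the cell types contains the BCE contrast, so for these genes it is a description and carries no p. Of 13646 genes in that fit, 3.68% were called. The LIF effect of ID1 was smaller in BCE than in BAE cells, by -0.76 on the log2 scale (SE 0.0930, 95% interval -0.95 to -0.56). The LIF effect of BAMBI was larger in BCE cells, by 0.97 (SE 0.208, 95% interval 0.53 to 1.42). For LRRC32 the difference was -0.07 (SE 0.125, 95% interval -0.33 to 0.20). These intervals describe the precision of the fit and are not read as tests. By these estimates ID1 had its larger response in BAE cells and BAMBI in BCE cells. LRRC32 had estimates of 0.66 in BAE and 0.56 in BCE cells, whose levels lay several-fold apart. Choosing genes for a rise in BCE cells favours large BCE estimates, so the difference of BAMBI may be overstated.

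**Figure D2:**
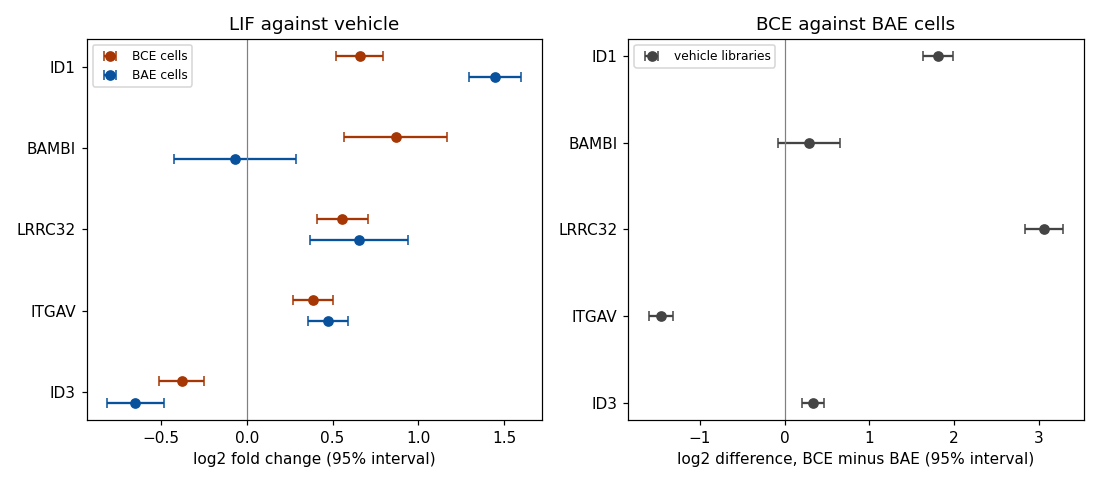
Log2 fold change with LIF in BCE and BAE cells (left panel) and log2 difference of BCE over BAE cells, both with vehicle (right panel) for ID1, BAMBI, LRRC32, ITGAV and ID3. Points are edgeR fits, bars are 95% intervals and the vertical line marks 0. With LIF, the BAE interval of BAMBI spans 0, from -0.43 to 0.28. The BAE point of ID1, with an interval from 1.30 to 1.60, lies to the right of its BCE point, which is a description only.

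**Figure D3:**
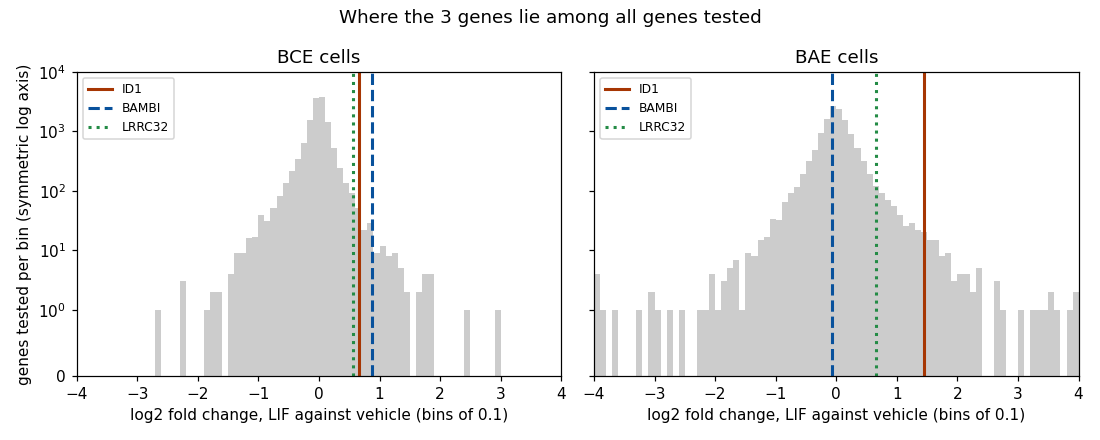
Number of genes tested (vertical axis, symmetric log scale) by log2 fold change with LIF (horizontal axis, bins of 0.1, the end bins holding all values beyond the axis) in BCE cells (left panel) and BAE cells (right panel). Lines mark ID1, BAMBI and LRRC32. All 3 lie in the upper tail in BCE cells, as their choice requires, whereas in BAE cells BAMBI lies at -0.07, near the middle, and ID1 at 1.45, in the tail.

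Of 113 symbols listed for LIF signaling and for the ligands, stores, receptors, transducers, inhibitors and targets of TGF-β and BMP signaling, the files pair 7 with an identifier. No ligand, receptor, SMAD, secreted antagonist or E protein is among them, so the levels of these were not analysed here. Apart from ID1, BAMBI, LRRC32 and the STAT3 and SOCS3 check, the 7 include ITGAV and ID3, which the authors also called in BCE cells. The 5 TGF-β and BMP genes had a median log2 fold change of 0.47 with LIF in BAE cells, against -0.00388 over all genes tested. For ITGAV and ID3 alone the median was -0.0888. In these cells 3 of the 5 were called higher (ID1, LRRC32 and ITGAV), 1 was called lower (ID3) and 1 was not called (BAMBI). Over all genes tested in BAE cells 13.6% were called higher and 8.55% lower. All 5 genes have a name only because of their LIF call in BCE cells, so nothing particular to them is read from the median or these counts. In vehicle, 3 were higher in BCE cells (ID1, LRRC32 and ID3), 1 was lower (ITGAV) and 1 was not called (BAMBI), beside 26.2% of all genes tested called higher and 27.6% called lower, 53.8% in all.

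ITGAV, the integrin α subunit found in the integrins that release TGF-β from its latent complex (ENSBTAG00000019929), was listed with LRRC32 among genes of latent TGF-β storage and activation. In BAE cells it was measured at 666 and 733 CPM with vehicle and at 988 and 908 CPM with LIF, with no overlap. It rose by 0.47 on the log2 scale (SE 0.0551, adjusted p = 8.08e-06 by edgeR). In BCE cells it was measured at 264 and 246 CPM with vehicle and at 328 and 337 CPM with LIF, a described change of 0.38. ITGAV and LRRC32 were thus both higher with LIF in BAE cells but lay on opposite sides at baseline, where ITGAV was lower in BCE cells by a log2 difference of -1.46 (SE 0.0657, adjusted p = 3.25e-09 by edgeR).

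ID3, a paralog of ID1 that also binds E proteins and responds to BMPs (ENSBTAG00000030425), moved against ID1 in the BAE libraries. It was measured at 97.0 and 92.0 CPM with vehicle (3334 and 2009 counts) and at 52.1 and 65.5 CPM with LIF (1090 and 1688 counts). Both LIF libraries lay below both vehicle libraries, although they differed more from each other than the ID1 values did. ID3 fell with LIF, with a log2 fold change of -0.65 (SE 0.0774, 95% interval -0.81 to -0.49), a fold of 0.637, with an adjusted p of 1e-05 by edgeR. In BCE cells ID3 was measured at 123 and 116 CPM with vehicle and at 94.1 and 89.1 CPM with LIF, a described change of -0.38.

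A ratio of counts within a library is free of scaling between libraries. ID1 counts per ID3 count were 0.275 and 0.262 in the BAE vehicle libraries and 1.27 and 1.07 in the BAE LIF libraries. They were 0.754 and 0.741 in the BCE vehicle libraries and 1.55 and 1.52 in the BCE LIF libraries. In BAE cells the ratio was higher in both LIF libraries than in both vehicle libraries. The same order in BCE cells is a description only, since the authors had called both genes there. Its absolute value also depends on the lengths of the genes and is read only between libraries.

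**Figure D4:**
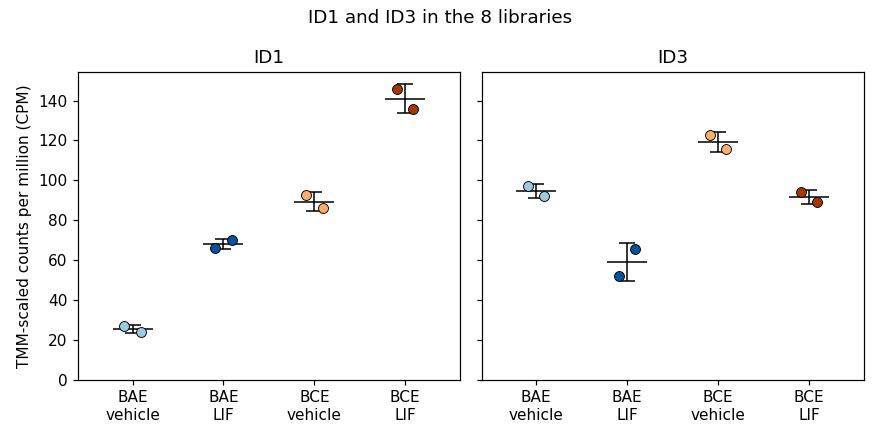
Levels of ID1 (left panel) and ID3 (right panel) in the 8 libraries, in TMM-scaled CPM on a shared axis from 0, by group. Points are libraries, the long horizontal line is the mean of a group and the bars are its SD (n = 2). In both cell types the LIF libraries lie above the vehicle libraries for ID1 and below them for ID3. Heights are compared within a panel only, since values are not divided by gene length.

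Likeness of pattern was measured as Pearson's r of log2 CPM over the 8 libraries with each of 107 other named genes, all of which the authors had called in BCE cells. The libraries share 4 groups and 2 cell types, so these values describe the pattern and carry no p. The genes most like ID1 were EFNA1 (r = 0.996), an ephrin ligand, TBXAS1 (r = 0.995), the thromboxane synthase, and SWAP70 (r = 0.992). EFNA1 had group means of 7.11, 26.1, 32.7 and 52.3 CPM in BAE vehicle, BAE LIF, BCE vehicle and BCE LIF, the same order as ID1. The genes most like BAMBI were NEDD4L (r = 0.957), a ubiquitin ligase, SOD2 (r = 0.946), the mitochondrial superoxide dismutase, and TNFSF18 (r = 0.895), a TNF family ligand. NEDD4L had group means of 56.4, 67.7, 79.8 and 129 CPM in the same order of groups, so unlike BAMBI its mean was higher with LIF in BAE cells too. The genes most like LRRC32 were NDRG1 (r = 0.996), SYBU (r = 0.995) and CELF4 (r = 0.984), and the BAE vehicle means of SYBU and CELF4 were 0.312 and 0.173 CPM, close to the floor.

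Over all 13645 other genes compared, 1051 had an r above 0.95 with LRRC32, 119 with ID1 and 7 with BAMBI. By this cut LRRC32, in which cell type makes the largest step, had many close matches and BAMBI had few. An r also depends on a gene's range against its spread. The SD of log2 CPM between replicates was 0.0902 for BAMBI and 0.0348 for LRRC32, so these counts do not show how rare a pattern is. Among themselves, ID1 and LRRC32 had an r of 0.886, BAMBI and LRRC32 of 0.831, and ID1 and BAMBI of 0.738.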

How the data were processed

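RNA from 8 cultures was sequenced as paired-end reads. According to the submitters' processing notes and the methods, the authors aligned reads to the bovine genome UMD3.1 with TopHat2 (2.0.12, with Bowtie2 2.2.3), counted reads per gene with HTSeq (0.6.1), and deposited the raw counts of all libraries without normalization. How strand and reads with several matches were handled is not given in the sources used here. The authors' table of genes called in BCE cells with DESeq (1.18.0) also holds group means, fold changes and p-values. Only its gene names were used, which are those of the best Swiss-Prot match of each gene. The table given for BAE cells, a copy of the BCE table, was not used.

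The counts were analysed in R (4.3.3) with edgeR (4.0.16): filterByExpr (minimum count 10, minimum total 15), TMM scaling, and the quasi-likelihood test, with p-values adjusted by Benjamini-Hochberg over all genes tested (threshold 0.05). Each comparison was fitted on its own 4 libraries, and the difference between LIF effects on all 8. The SE was derived from the fold change and its F statistic, and levels were scaled over all 8 libraries. Log2 CPM for likeness used a prior count of 2. Poisson intervals (95%) and floors cover counting error only. Units without an Ensembl identifier (1273 rows, 1.79% of counts) were kept.

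ID1, BAMBI and LRRC32 and the lists were chosen with earlier results of these data known. The genes named are these 3, the listed pathway genes past the threshold with groups that do not overlap, ID proteins, SMADs, STAT3 and SOCS3, and the 3 named genes most like each. A gene of the lists is not reported here and was left out of their counts. Since every named gene had been called by the authors in BCE cells, none was tested there or for the difference of LIF effects, although a test of the listed genes had been planned. The replicate numbers of the titles were not used as pairs. Alternatives were DESeq2 size factors, the DESeq2 test (1.42.0), no filter, a minimum of 10 counts in every library, a replicate block, all 8 libraries in 1 fit, and each library left out. No sequence is shown, since no bovine sequence was used here.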

Additional observations from a re-analysis of the deposited data

How the results depend on the processing

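In BAE cells ID1 and LRRC32 passed the threshold under all 10 alternatives, with log2 changes of 1.38 to 1.52 and 0.62 to 0.66 and edgeR or DESeq2 adjusted p-values of at most 1.46e-07 and 0.0211. Between vehicle-treated cells they did so too (1.73 to 1.88 and 3.03 to 3.09). BAMBI passed under none, with adjusted p-values of 0.693 to 0.97 in BAE cells and of 0.105 to 0.514 between vehicle-treated cells. With a library left out, its BAE change ran from -0.15 to 0.024, the sign turning at 0.024 without BAE vehicle replicate 1. The difference of LIF effects then ran from -0.84 to -0.69 for ID1, from 0.87 to 1.05 for BAMBI and from -0.13 to -0.044 for LRRC32. That of ITGAV turned to 0.012 without BAE vehicle replicate 1 and to 0.0058 without BAE LIF replicate 1. In BCE cells LRRC32 ran from 0.51 to 0.60. In these fits the arm with 1 library is assumed to vary like the other.

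Counts of genes called moved more, and the cause was not tested. In BCE cells the 120 calls became 437 without a filter, 217 in 1 fit of all libraries, 1423 without BCE vehicle replicate 1, 477 without vehicle replicate 2, and 56 and 55 without LIF replicates 1 and 2. In BAE cells the 2889 calls became 1920 with DESeq2 and ran from 1807 (without BAE LIF replicate 1) to 2905 with a library left out. The 502 calls for the difference became 889 without a filter and ran from 261 (without BAE LIF replicate 1) to 948 (without BCE vehicle replicate 1). The 7223 calls between vehicle-treated cells stayed within 1.5 times under every alternative run.

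Scaled by library totals alone, LRRC32 had means of 5.12, 7.79 and 45.4 CPM in BAE vehicle, BAE LIF and BCE vehicle, and of 8.13 in BAE LIF by DESeq2 size factors.

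The replicate numbers were treated as names, since the titles and descriptions number the libraries differently. Deviations of same-numbered libraries from their group means correlated over genes at 0.100 in BCE cells, -0.021 in BAE cells and -0.053 between vehicle-treated cells. With 2 libraries in a group the deviations mirror each other, so these values cannot settle whether the numbers mark pairs. With the replicate number as a block, 226 genes were called in BCE cells, 2887 in BAE cells, 7049 between vehicle-treated cells and 521 for the difference, and no call of ID1, BAMBI or LRRC32 changed.

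In BAE cells BAMBI was read from 90 to 162 counts in a library, and LRRC32 from 115 to 209 counts. Whether the number of counts bears on which of them was called was not tested.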
